A study of Mus musculus with 96 samples.

Results

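Bone marrow dendritic cells of the mouse that had been given the ligand called Pam were compared with cells that had been given none, 4 to 8 h into the exposure. The labels leave Pam unexplained. It is taken here, from what is known of this experiment, as a synthetic bacterial lipopeptide, an agonist of Toll-like receptor 2 (TLR2). The Pam group is made of 6 arrays, 2 each at 4, 6 and 8 h. The unstimulated group is all 8 arrays titled Control, 1 each at 0, 1, 2, 4, 6, 8, 12 and 24 h. These 14 arrays are part of a series of 96, which also holds Pam at other times and the ligands Lps, Pic, Cpg and Grd (taken as lipopolysaccharide, poly(I:C), CpG oligonucleotides and gardiquimod). All cells are labelled as primary bone marrow dendritic cells, with no strain, age, dose or genotype in the labels used here. Whether replicate arrays stand for separate cultures is not labelled either. A p-value here thus speaks only of spread between arrays, possibly technical, pooled over all groups of the series. The 8 unstimulated arrays share 1 mean, so their part of that spread also holds differences between hours.

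TLR2 sits at the cell surface and binds bacterial lipopeptides together with TLR1 or TLR6. It signals through the adaptor MyD88 to NF-kB and to mitogen-activated protein kinases, which switch on genes for cytokines, chemokines and feedback inhibitors. Receptors that also use the adaptor TRIF, or that signal from endosomes, can in addition induce type I interferon, which in turn induces a large set of antiviral genes. Dendritic cells answer such ligands by maturing: they put out cytokines and costimulatory molecules and reduce their uptake of antigen.

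Expression was read as array intensity, with a floor of 20 below which the table gives no value. Between 33.1% and 34.2% of the probe sets of each of the 14 arrays lay at that floor, and the median intensity per array was 53.15 to 59.5. The 2 arrays of each Pam time correlated with r of 0.9965 to 0.9969 across probe sets, which are not independent replicates. A gene was called when its difference in log2(intensity + 1) was at least 1 in size with an adjusted p under 0.05 in limma. Differences below are on that scale, with the standard error of the model after ±, and they understate changes of dim genes. The 12 marker genes of dendritic cells and macrophages were all measured and none was called. Their summed intensity was 38425 to 40512 on the Pam arrays and 39730 to 44778 on the unstimulated arrays. For B cells all 5 measured markers, of 7 listed, lay at the floor on all 14 arrays. Measured markers of T cells (3 of 9), mast cells (6 of 7), erythroid cells (4 of 7) and fibroblasts (3 of 6) were at or near it. Neutrophil markers (8 of 10 measured) summed to 4997 to 6729 with Pam and 7771 to 10260 without, with Ltf and Mmp8 called lower. Markers of natural killer cells (4 of 6 measured) summed to 83.6 to 147.5 and 181.8 to 238.6, with Ncr1 and Gzma at the floor and Klrk1 called lower (-1.47). What part such cells have in the results below was not tested, and in bulk RNA fewer cells of a type cannot be told apart from less RNA per cell. All Pam arrays of 4 to 8 h lay in plate columns 4 to 6 and all unstimulated arrays in columns 10 to 12, so that position and treatment cannot be told apart. The other ligands lay in other plate rows than Pam, and each Pam hour had its own column. Position thus cannot be told apart from ligand or hour either.

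With Pam, 366 genes were higher (3.47% of the 10543 genes and unnamed probe sets tested) and 423 were lower (4.01%), together 7.48%. The counts of gene lists against unstimulated cells below stand beside these shares, and a count near them says nothing particular about its list. The largest changes measured were rises: 105 genes rose by at least 2 and 22 by at least 4, while 45 fell by at least 2 and none by 4. With a floor of 20 and median intensities of 53.15 to 59.5 per array, many genes had little room to fall. Sizes of rises and falls are therefore not on equal terms. The largest rises were in Il6, Ptgs2, Cxcl1, Cxcl2 and Tnf, and the largest falls in Rgs2, Klf4, Eps8, Vsir and C3ar1. The median difference over all genes was -0.03. The arrays of the 2 groups did not overlap for 761 of the 789 called genes, beside 29.1% of all genes tested. With each array centred on its median the counts were 391 and 391, and with quantile normalization 391 and 381.

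**Figure D1:**
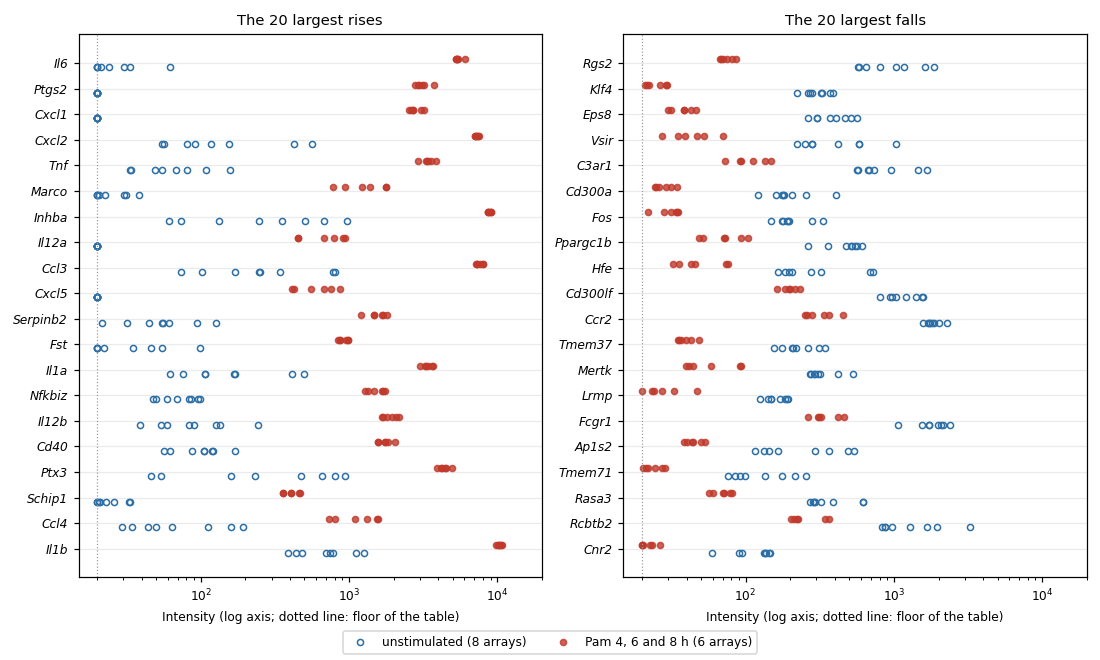
Intensity on a log axis of the 20 largest rises (left) and the 20 largest falls (right) on every array; filled red points are the 6 Pam arrays, open blue points the 8 unstimulated arrays and the dotted line is the floor of 20. The groups do not overlap for any of the 40 genes, which was a condition for being shown, and the unstimulated points spread more widely than the Pam points for genes such as Inhba and Ptx3.

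Il6, which encodes the cytokine interleukin-6, had the largest rise. Its intensity on the Pam arrays was 5247 at the lowest, 5365 at the median and 6030 at the highest, against 20, 22.7 and 62.4 without stimulation. All 6 Pam arrays thus lay far above all 8 unstimulated arrays, a difference of 7.61 ± 0.18 (adjusted p = 1.4e-38 in limma). Ptgs2, the inducible cyclooxygenase of prostaglandin synthesis, was at the floor on all 8 unstimulated arrays and ranged from 2797 to 3765 with Pam, median 3034. This is a rise of at least 156-fold. A second Ptgs2 probe set, also at the floor in all unstimulated arrays, differed by 6.42 and was called too. Cxcl1, a chemokine gene for neutrophils, was likewise at the floor without stimulation and stood at 2549 to 3224 with Pam, at least 140-fold higher.

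Promoter sequence is shown here for the largest rises because several of these genes are textbook targets of NF-kB. Of the 20 genes, 15 had an entry in the RefSeq promoter table (build GRCm38.p6, 250 bases before to 50 after a start site), and 4 of the 15 held the motif GGGANNTTC on either strand, or 26.7%. The same motif is in 3.94% of all 32851 entries of that table, and 4.47% of its 27025 genes have an entry with it. These are the 4, each with 60 bases before the first match and up to 60 after it, ended at the start site or at the match. They are given 5′ to 3′ on the gene's own strand. Capitals mark the matches, and in Cxcl1 and Cxcl2 overlapping matches on both strands run together.
Il6, chr5:30013010-30013113, plus strand: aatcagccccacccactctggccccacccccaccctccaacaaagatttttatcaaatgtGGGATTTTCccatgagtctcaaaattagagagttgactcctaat
Cxcl1, chr5:90891114-90891242, plus strand: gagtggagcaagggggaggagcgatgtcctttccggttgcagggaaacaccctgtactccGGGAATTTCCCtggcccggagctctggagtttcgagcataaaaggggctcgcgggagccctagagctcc
Cxcl2, chr5:90903742-90903870, plus strand: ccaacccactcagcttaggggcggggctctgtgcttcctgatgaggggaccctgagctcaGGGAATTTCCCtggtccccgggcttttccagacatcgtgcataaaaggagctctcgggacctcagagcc
Tnf, chr17:35201995-35202063, minus strand: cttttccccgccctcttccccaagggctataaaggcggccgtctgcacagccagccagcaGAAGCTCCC
The match of Tnf lies just after its start site and on the opposite strand, while the other 3 lie before the start, by 44 bases in Il6, 71 in Cxcl1 and 97 in Cxcl2. A match is a run of letters and not a measured binding site. Among the 11 genes with an entry and no match were Ptgs2, Il12a, Il12b and Il1b, which says only that these letters are not in that window.

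Of the 21 measured genes for inflammatory cytokines 13 were higher and 1 was lower, with a median difference of 1.6. Tnf, the gene of tumour necrosis factor, stood at 2938 to 3848 with Pam (median 3387) and at 33.2 to 157.6 without (median 61.75), a rise of 5.70 ± 0.17. The interleukin-1 genes Il1a and Il1b rose by 4.45 ± 0.22 and 3.91 ± 0.13. The lowest Il1b value with Pam, 9841, lay well above the highest without it, 1256. Il12a, which encodes the p35 subunit of interleukin-12, was at the floor on all unstimulated arrays and at 450.7 to 936.4 with Pam, at least 33.7-fold higher. Il12b, the gene of the shared p40 subunit, rose by 4.39 ± 0.21, and Ebi3, the gene of an interleukin-27 subunit, by 2.15 ± 0.07. Among growth factor genes Inhba, an activin subunit, rose by 5.11 ± 0.31, the EGF-family ligand gene Ereg at least 7.10-fold, and Csf1, the macrophage colony-stimulating factor gene, by 1.37. Other Csf1 probe sets stood at 1.19, which was called, and at 0.63 and 0.22, which were not. Il1rn, whose product blocks the interleukin-1 receptor, rose by 1.6 ± 0.18. The anti-inflammatory cytokine gene Il10 was at the floor on all 14 arrays, as was Il33. Vegfa was the member called lower, by -1.26 ± 0.19, but its second probe set stood at -0.37 and was not called.

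Beyond the cytokines, Fst, Ptx3, Schip1 and Serpinb2 were among the 20 largest rises. Fst encodes follistatin, which binds and blocks activins, and it rose by 4.73 ± 0.21, from a median of 28.55 to 913.1. Ptx3, a soluble pattern-recognition protein gene, rose by 4.05 ± 0.34 (adjusted p = 3.4e-15 in limma, the largest of the 20). Its unstimulated values ran from 46.3 at 24 h to 941.5 at 2 h, and its lowest Pam value was 3937. Schip1 rose by 4.02 ± 0.11. Serpinb2, the gene of plasminogen activator inhibitor 2, rose by 4.81 ± 0.19, from 21.7 to 127.3 up to 1199 to 1802.

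Among 21 chemokine genes 8 were higher and none was lower, with a median of 0.53. Cxcl1, Cxcl2 and Cxcl5, ligands of the neutrophil receptor CXCR2, had large rises. Ppbp, another of its ligands, stood at 0.83 and was not called. Cxcl2 went from 54.4 to 561.7 without stimulation (median 104.4) to 7018 to 7567 with Pam, a rise of 5.75 ± 0.26. Cxcl5 rose at least 29.6-fold. The macrophage inflammatory protein genes Ccl3 and Ccl4 rose by 4.89 ± 0.25 and 4.01 ± 0.21. The groups overlapped for neither, which was a condition for the 20 largest rises. By contrast Ccl5, a chemokine gene for T cells, was bright in both groups (9235 to 10275 with Pam, 7920 to 9471 without) and differed by 0.17. For Ccl2, a monocyte chemokine, the difference was 1.35 ± 0.38 (adjusted p = 0.0017 in limma) and the arrays overlapped: 359.7 to 693.3 with Pam, 40.7 to 944.0 without. Ccl17 was called at 1.29 ± 0.29, with its unstimulated values between 8927 and 10118 at 0 to 4 h, at 1604 at 6 h and at 776.5 at 24 h. Its call was lost without the 24 h array (0.91), and with the 14 arrays fitted alone neither Ccl2 nor Ccl17 was called. Over the alternative settings 6 to 10 chemokine genes were called higher.

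**Figure D2:**
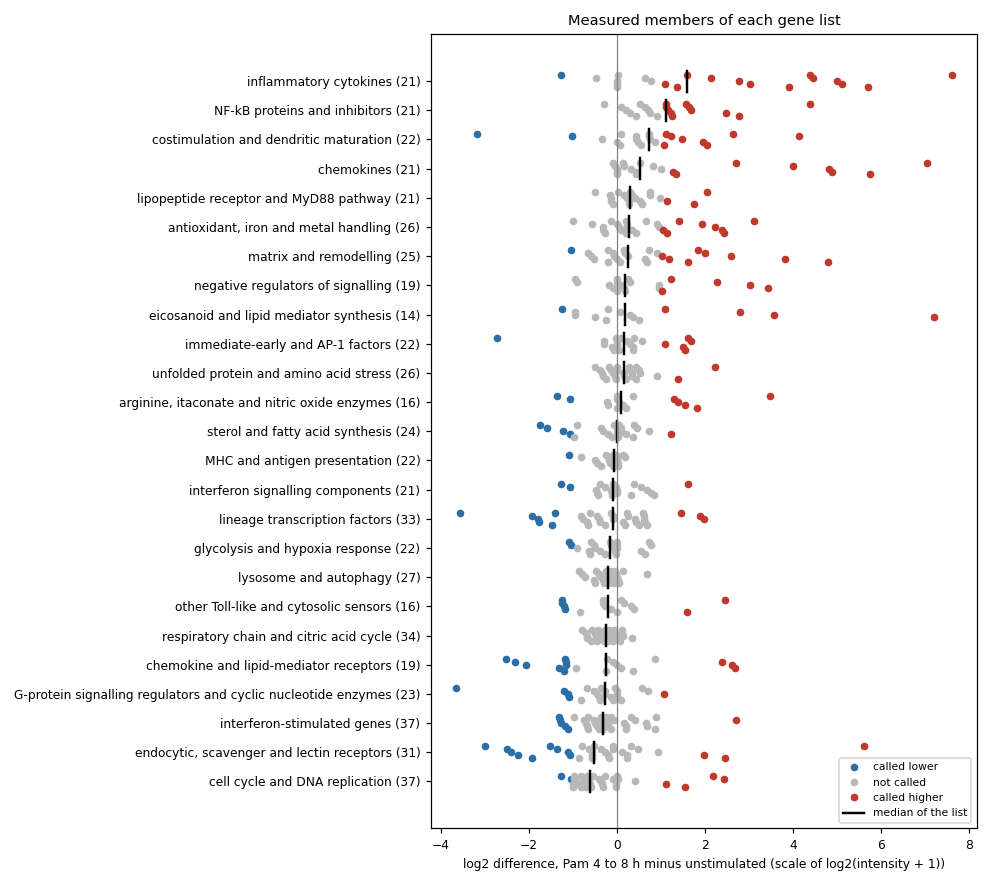
Difference in log2(intensity + 1) between Pam at 4 to 8 h and unstimulated cells for each measured member of 25 gene lists, with the number of measured members in brackets; red is called higher, blue called lower, grey not called, and the black bar is the median of the list. The lists are ordered by median, from 1.6 for cytokines to -0.61 for cell cycle genes, and most lists hold members on both sides of 0.

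Of 21 measured genes of the lipopeptide receptor and MyD88 pathway 3 were higher and none was lower, with a median of 0.30. Tlr1, the partner of TLR2 for triacylated lipopeptides, rose by 2.04 ± 0.14, from 104.8 to 306.2 (median 138.6) up to 586.6 to 705.0. Cd14, a co-receptor that hands lipids to TLR2 and TLR4, rose by 1.75 ± 0.11, and Map3k8, the kinase TPL2, by 1.15 ± 0.06. Tlr2 itself was just under the size needed, at 0.98 ± 0.06 (adjusted p = 8.8e-22 in limma), and its groups did not overlap: 3713 to 3958 with Pam, 1441 to 2341 without. The adaptor genes Myd88 and Tirap stood at 0.28 and -0.08. Of 16 other sensor genes 2 were higher and 4 lower. Nlrp3, the inflammasome sensor, and Clec4e, the lectin Mincle, rose by 1.59 and 2.45. Tlr4, the lipopolysaccharide receptor, fell by 1.23 ± 0.08, with 165.4 to 210.0 on the Pam arrays and 377.5 to 601.8 on the others, and a second probe set was also called. Tlr3 stood at -1.25 ± 0.11, but its second probe set stood at -0.14 and was not called.

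Among 21 genes for NF-kB proteins, their inhibitors and related survival factors, 11 were higher and none was lower, with a median of 1.11. Of those called, Nfkbiz, Nfkbia, Nfkbie, Nfkbib, Tnfaip3 and Tnip1 encode inhibitors or regulators of NF-kB. Nfkbiz, a nuclear IkB protein needed for Il6 induction, rose by 4.40 ± 0.14, from 47.9 to 99.0 up to 1286 to 1755. Cflar, an inhibitor of caspase-8, rose by 2.78 ± 0.16, Tnfaip3, the ubiquitin editor A20, by 2.48 ± 0.14, and the cytoplasmic inhibitor Nfkbia by 1.65 ± 0.10. Of the DNA-binding subunits, Nfkb2 rose by 1.23 ± 0.08, while Rel, Rela and Relb stood at 0.74, 0.30 and 0.10 and were not called. Among 19 other negative regulators 5 were higher: the cytokine-signalling inhibitors Socs3 (3.45 ± 0.20) and Socs1 (2.27 ± 0.17), the RNase gene Zc3h12a (3.02 ± 0.08) and the phosphatase genes Dusp16 (1.23) and Dusp1 (1.03). Zc3h12a was even across the Pam arrays, at 523.1 to 586.7, against 51.4 to 92.8. The Dusp1 call was lost without the unstimulated array of 12 h (0.96) and without that of 24 h (0.92).

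Maturation genes split. Of 22 genes for costimulation and maturation 8 were higher and 2 lower, with a median of 0.73. Fscn1 counted as not called, at 0.50, although its other probe sets were called at 1.58, 1.52 and 1.52. Cd40, the receptor for T cell help, went from 56.7 to 170.2 up to 1576 to 2027, a rise of 4.15 ± 0.12. Cd70, a ligand for T cell CD27, was at the floor without stimulation and at least 6.52-fold higher with Pam, and Cd80 rose by 1.95 ± 0.15. Its partner Cd86 was not called, at 0.54 with overlapping arrays, and neither was Cd83, a maturation marker, at -0.33. Vsir, an inhibitory relative of these ligands, fell by 3.18 ± 0.19, with 27.4 to 69.9 on the Pam arrays and 222.6 to 1034 on the others. Pdcd1lg2, the inhibitory ligand PD-L2, was lower by 1.01 on average, with unstimulated values from 1110 at 0 h to 358.5 at 24 h that overlapped those with Pam, and its call was lost without any 1 of several arrays, such as the unstimulated array of 0 h (-0.92). Of 22 genes of antigen presentation 1 was called, H2-DMa, the peptide-loading chaperone, at -1.08 ± 0.06. That is 4.55% lower, near the 4.01% of all genes. The MHC class II genes H2-Ab1 and H2-Aa stood at 0.03 and 0.04 with overlapping arrays.

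Some genes of a mixed list of endocytic, scavenger and lectin receptors, with complement genes, were among the larger falls. Of its 31 measured members 9 were lower and 3 higher, with a median of -0.52. Marco, a scavenger receptor for bacteria, was the exception in size: it lay between 20 and 38.3 without stimulation and between 777.2 and 1789 with Pam, a rise of 5.61 ± 0.12. Clec4e and the lectin-like receptor Olr1 were the other rises. C3ar1, the receptor for complement fragment C3a, fell by 2.98 ± 0.17, from a median of 704.8 to 102.5. Mertk, a receptor for dying cells, fell by 2.49 ± 0.10, the high-affinity IgG receptor Fcgr1 by 2.39 ± 0.09, the galactose lectin Clec10a by 2.25 ± 0.16 and the mannose receptor Mrc1 by 1.92 ± 0.11. For C3ar1, Mertk and Fcgr1, which are among the 20 largest falls, arrays that did not overlap were a condition for being named. For Clec10a and Mrc1, too, every Pam array lay below every unstimulated array. The arrays of the 2 groups did not overlap for 29.1% of all genes tested. Msr1, Clec7a and Cd36, which are also uptake receptors of the list, stood at -0.09, -0.26 and 0.23 and were not called. The complement genes C1qa and C1qc were lower by 1.53 and 1.07, the latter not called without the unstimulated array of 24 h (-0.92) or that of 6 h. Without the unstimulated arrays of 6 h and 24 h, a setting chosen after the data were seen, 7 of the 31 were lower and 3 higher.

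Receptors for chemokines and lipid mediators fell more often than they rose, 8 against 3 of 19, with a median of -0.25. Ccr2, the receptor that takes monocytes to inflamed tissue, went from 1574 to 2297 down to 252.1 to 451.1, a fall of 2.52 ± 0.09, and its 2 other probe sets were called lower too. Cnr2, the cannabinoid receptor of immune cells, fell by 2.31 ± 0.13 and came close to the floor, with 20 to 26.3 on the Pam arrays. Gpr84, a receptor for medium-chain fatty acids, and Hcar2, the niacin receptor, rose by 2.69 ± 0.16 and 2.61 ± 0.19, and the chemerin-binding receptor Ccrl2 by 2.40 ± 0.10. Of 23 regulators of G-protein and cyclic nucleotide signalling 4 were lower (17.4%, beside 4.01% of all genes) and 1 higher (4.35%, near the 3.47% of all genes). Rgs2, which speeds the turn-off of Gq proteins, had the largest fall of all genes: 67.1 to 86.2 with Pam, 572.3 to 1867 without, a difference of -3.65 ± 0.14 (adjusted p = 4.8e-29 in limma). A second Rgs2 probe set stood at -3.79.

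Of 33 lineage transcription factor genes 6 were lower and 3 higher, with a median of -0.09. The Krüppel-like factor gene Klf4, which promotes monocyte differentiation, lay at 20.9 to 29.3 with Pam and at 220.7 to 387.1 without, a fall of 3.56 ± 0.12. Klf2, its relative, was at the floor on all 6 Pam arrays, at least 3.49-fold lower. Sox4 was called at -1.93 on its brightest probe set and at -1.15 on another, while 3 further probe sets at or near the floor were not called. Cebpd and Ets2 rose by 1.99 ± 0.12 and 1.88 ± 0.09. Other large falls were Eps8, an actin regulator (-3.33 ± 0.10), the inhibitory receptor genes Cd300a and Cd300lf (-2.77 ± 0.14 and -2.54 ± 0.10), Fos, the AP-1 subunit (-2.71 ± 0.13), and Ppargc1b, a coactivator of mitochondrial genes (-2.70 ± 0.13). Hfe, the haemochromatosis gene, was at -2.58 ± 0.20; its second probe set, at the floor on all Pam arrays, gave -0.55. The 34 respiratory chain and citric acid cycle genes and the 27 lysosome genes gave no calls, with medians of -0.24 and -0.19.

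Enzymes of lipid mediators and of defence rose in small numbers but by much. Beside Ptgs2, the prostaglandin E synthase gene Ptges rose by 2.81 ± 0.07 on 1 probe set (0.89 and not called on a second), and Ch25h, the cholesterol 25-hydroxylase gene, by 3.58 ± 0.12. Of 14 eicosanoid genes 4 were higher and 1, the thromboxane synthase gene Tbxas1, was lower. Slc7a2, an arginine transporter gene, rose by 3.48 ± 0.25 and Acod1, the itaconate enzyme gene, by 1.82 ± 0.10, whereas Nos2, inducible nitric oxide synthase, was at the floor on all 14 arrays. Arg1 was called lower, at -1.36 ± 0.17, and its relative Arg2 higher, at 1.39 ± 0.21, both with overlapping arrays. Among 26 antioxidant, iron and metal genes 8 were higher and none lower. Lcn2, whose product binds bacterial siderophores and which neutrophils also express, rose by 3.11 ± 0.10, from 248.4 to 414.2 up to 1889 to 3964. Saa3, an acute-phase protein gene, and the cystine transporter gene Slc7a11 rose by 2.44 ± 0.11 and 2.24 ± 0.09. Of 25 matrix genes 8 were higher, among them the collagen crosslinker Lox (3.82 ± 0.11) and the collagenase Mmp13 (2.59 ± 0.09), and 1 was lower, Mmp8, which lost its call without the unstimulated array of 6 h (-0.96) or of 24 h (-0.90). Timp2, of the same list, was not called on the probe set that stood for it (-0.66). Other Timp2 probe sets were called lower, at -2.04, -1.87 and -1.09, and 1 was not called, at -0.30.

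Cell cycle genes had the lowest median of the 25 lists, -0.61 over 37 genes, with 4 called higher and 3 lower. The replication helicase genes Mcm6 and Mcm7 and the checkpoint gene Bub1b were lower, by 1.26, 1.03 and 1.00. The Mcm7 call was lost with centred arrays (-0.99), without the unstimulated array of 0 h (-0.99) and without the second Pam array of 4 h (-0.98), though a second probe set stood at -1.73 and was called. Bub1b, too, was not called with centred arrays (-0.97) or quantile normalization (-0.90), nor without any 1 of several arrays, which left Mcm6 as the member called lower under both scalings. Tyms, the thymidylate synthase gene, rose by 2.44 ± 0.12 (0.31 on a second probe set that is at the floor without stimulation). Mki67, a proliferation marker, went from 97.9 to 217.4 up to 309.0 to 444.9. Ccnd2, a G1 cyclin gene, was called at 2.20 ± 0.31, with unstimulated values of 704.5 to 1042 at 0 to 4 h and 67.4 to 334.4 at 6 to 24 h. Over the settings tried, 1 to 6 genes of this list were called lower.

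The unstimulated arrays were not uniform. Inhba read 676.2, 507.8, 965.7 and 350.6 at 0, 1, 2 and 4 h, then 73.6, 245.5, 132.0 and 61.1 at 6, 8, 12 and 24 h, all far below the Pam arrays (8588 to 9128). Vsir went the other way, from 222.6 to 281.3 at 0 to 4 h up to 419.2 to 1034 later, and Ap1s2, a clathrin adaptor gene that fell by 2.39 ± 0.20 with Pam, from 115.2 to 166.3 up to 293.3 to 536.4. The 6 h array was high for interferon-stimulated genes. Ifit3 read 1397 there and at most 622.6 on the other 7, and Iigp1 read 300.2 and at most 120.9. Klf4 stayed between 220.7 and 387.1 throughout. With only the unstimulated arrays of 4, 6 and 8 h, 385 genes were higher and 460 lower. Without those of 6 and 24 h the counts were 351 and 390, of which 341 and 360 were also called with all 8.

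**Figure D3:**
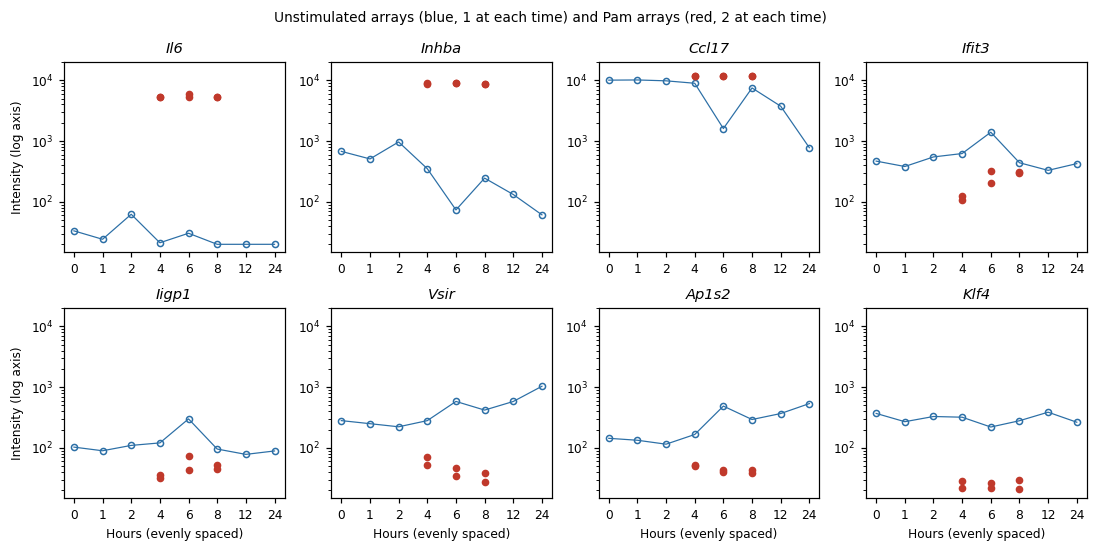
Intensity on a log axis of 8 genes on each unstimulated array (open blue, 1 at each of 8 times, joined by a line) and each Pam array (red, 2 each at 4, 6 and 8 h); the hours are evenly spaced and not to scale. Inhba and Ccl17 are lower on the later unstimulated arrays, Vsir and Ap1s2 higher, and Ifit3 and Iigp1 peak on the 6 h array.

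Few genes were called within the window. Between 4 and 8 h of Pam, 33 genes were higher at 8 h (0.313% of those tested) and 44 were lower (0.417%). Those that climbed included Tmeff1, a transmembrane protein gene of the follistatin-like family, which read 31.1 and 38.2 at 4 h, 53.2 and 71.8 at 6 h and 116.9 and 118.1 at 8 h, a difference of 1.74 ± 0.16 (adjusted p = 7.7e-12 in limma). Ereg read 55.5 and 93.9 at 4 h and 253.6 and 225.5 at 8 h (1.71 ± 0.25). Slc1a2, a glutamate transporter gene, went from 77.9 and 68.2 to 232.1 and 220.8 (1.62 ± 0.12). In each case both 8 h arrays lay above both 4 h arrays, but this was a condition for being named. It held for all 77 genes called between 4 and 8 h. Lox rose by a further 1.44 ± 0.20 and Marco by 1.06 ± 0.23, although Marco was at 0.92 and not called without the first 4 h array. Il6, at -0.00 ± 0.34, Tnf, at -0.17 ± 0.31, and Cxcl1, at 0.13 ± 0.18, were not called. P2ry6, a receptor for UDP, was 1.49 ± 0.13 higher at 8 h than at 4 h while still below every unstimulated array: it read 146.6 and 179.3, then 263.3 and 268.7, then 444.2 and 472.5, against 515.6 to 830.0.

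The largest decline was in Mrc1. It read 735.2 and 858.9 at 4 h, a geometric mean of 404.6 at 6 h, and 218.6 and 167.6 at 8 h, a difference of -2.05 ± 0.21 (adjusted p = 1.5e-10 in limma). Ramp1, a subunit of the receptor for the neuropeptide CGRP, fell by 1.74 ± 0.20 over the same time. Both moved further from the unstimulated level. Edn1, the gene of the vasoactive peptide endothelin-1, moved back towards it: at the floor on all unstimulated arrays, it read 87.4 and 61.7 at 4 h and 28.4 and 27.1 at 8 h (-1.37 ± 0.16). The receptor genes Clec10a and Mertk were lower at 8 h too, with differences of -1.07 ± 0.30 and -1.16 ± 0.18. Clec10a lost its call without the first 4 h array (-0.87) or either 8 h array. Of the other genes chosen for size, Septin11, Ccdc80, Endod1 and Enah were lower, with differences from -1.57 to -1.25. Other Endod1 probe sets stood at -0.90, -0.81 and -0.02, under the size needed, and a second Ccdc80 probe set at -1.12. Enah lost its call without the first 8 h array (-0.90), and its second probe set stood at -0.44.

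Sterol and fatty acid synthesis genes fell inside the window, 7 of 24 being lower at 8 h than at 4 h and none higher, with a median of -0.45 against 0.00 over all genes. Sqle, the squalene epoxidase gene, read 594.5 and 627.3 at 4 h, 441.3 and 412.5 at 6 h, and 252.6 and 252.7 at 8 h, a difference of -1.27 ± 0.15 (adjusted p = 6.4e-09 in limma). The unstimulated arrays lay between 266.5 and 484.9, so that the 4 h arrays were above all of them and the 8 h arrays below. Cyp51, Fdft1 and Msmo1, which act in the same pathway, passed from 770 to 824, 843 to 884 and 1689 to 1738 at 4 h to 353.9 to 395.6, 408.6 to 441.5 and 837.5 to 864.4 at 8 h. Stard4, a sterol carrier gene, Hsd17b7 and Fasn, the fatty acid synthase gene, made up the 7. Over all 3 times Sqle stood at 0.05 ± 0.08 against the unstimulated arrays. For 4 of the 7 genes the difference was between -1.0 and -1.09, near the size needed, and 3 to 8 genes were called over the alternative settings. Without the second 8 h array Fdft1, Msmo1, Fasn and Hsd17b7 stood at -0.97, -0.99, -0.90 and -0.99 and were not called. Without the second 4 h array the first 3 of these were not called.

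**Figure D4:**
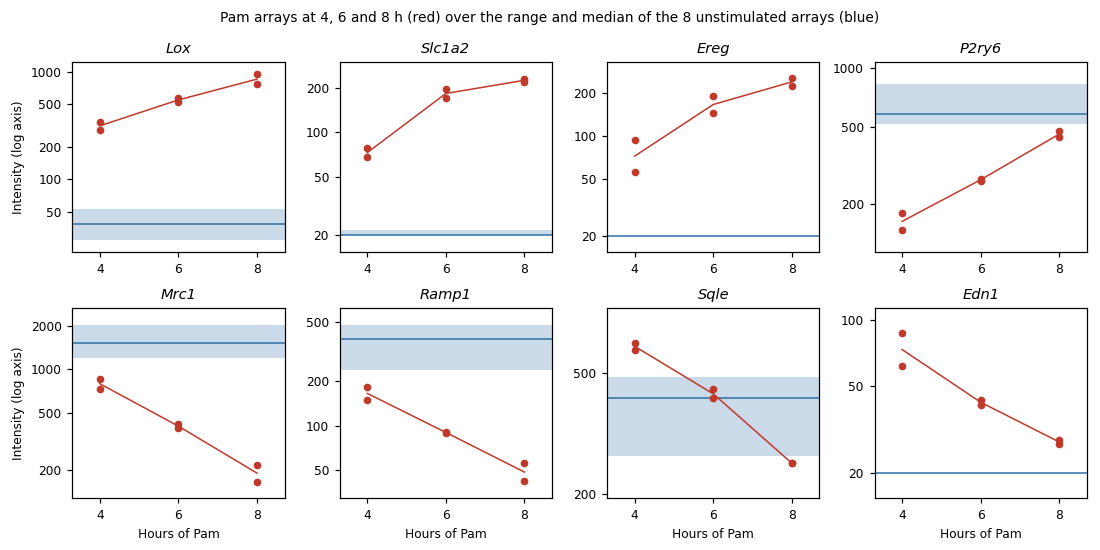
Intensity on a log axis at 4, 6 and 8 h of Pam for 8 genes (red points, the 2 arrays of each time; red line, their geometric means), over the range (blue band) and median (blue line) of the 8 unstimulated arrays. Lox, Slc1a2 and Ereg climb away from the band and P2ry6 climbs towards it, while Mrc1 and Ramp1 fall away from it, Edn1 falls towards it and Sqle crosses it.

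Compared with the 6 Pam arrays of 0.5, 1 and 2 h, 196 genes were higher at 4 to 8 h (1.86%) and 247 lower (2.34%), together 4.20%. Marco led, with geometric means of 41.5 early and 1251 at 4 to 8 h (4.88 ± 0.13), and it was at 3311 at 12 to 24 h. Acpp, the prostatic acid phosphatase gene, went from 195.3 to 2645 (3.75 ± 0.13) and Il12a from 56.3 to 673.8 (3.55 ± 0.10). Cxcl5, the transporter gene Slco3a1, the pantetheinase gene Vnn3, Lox and Slc1a2 followed, higher by 2.63 to 3.46. Genes of the immediate-early class had gone down from their early Pam level: 9 of 22 were lower and 1, Batf, was higher, with a median of -0.68. Against unstimulated cells 5 of the 22 were higher (22.7%, beside 3.47% of all genes) and 1, Fos, was lower, with a median of 0.17. Egr1, a zinc-finger factor induced within minutes of stimulation, had a geometric mean of 618.6 early and was at the floor on 5 of the 6 arrays at 4 to 8 h, with 20.5 on the other, a difference of -4.88 ± 0.16. Fos, Ier2, Egr2 and Btg2 were at -3.31, -2.23, -1.84 and -1.64. Of 19 negative regulators 6 were lower, among them the phosphatase genes Dusp2 (-2.40) and Dusp1 (-1.33), and Socs1 was higher (1.82). Several genes that fell against unstimulated cells were also below their early Pam level, with Eps8 at -3.59, Cd300lf at -2.5 and Fcgr1 at -2.37; these comparisons share the Pam arrays of 4 to 8 h.

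Of 37 interferon-stimulated genes measured, 1 was higher than in unstimulated cells (2.70%, beside 3.47% of all genes) and 5 were lower (13.5%, beside 4.01%), with a median of -0.31 against -0.03 over all genes. The one that rose was Cxcl10, a T cell chemokine, from 20 to 64.6 up to 147.8 to 408.5 (2.71 ± 0.16). Ifit3, Iigp1, Oas3, Ifi204 and Ifit2 were lower by 1.11 to 1.32. Without the unstimulated array of 6 h, 4 were lower and the median was -0.23, and Ifit2 stood at -0.94. Over all settings tried, 4 to 9 were lower. A second probe set of Iigp1 stood at -0.69 and was not called. Ifnb1, the interferon-beta gene, was at the floor on all 14 arrays. Between 4 and 8 h of Pam 3 of the 37 were higher (8.11%, beside 0.313% of all genes), Ifit3, Cxcl10 and Dhx58, with a median of 0.54, and none was lower. Cxcl10 and Dhx58 lost their calls without the first 4 h array (0.87 and 0.97) and without the second 8 h array (1.06 and 0.95), and Cxcl10 also without the first 8 h array. Ifit3 read 123.1 and 109.1 at 4 h, 319.6 and 203.1 at 6 h and 308.7 and 293.8 at 8 h.

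This set Pam apart from the other 4 ligands, each with 6 arrays at 4 to 8 h. Against their mean 327 genes were lower with Pam (3.10%) and 49 higher (0.465%), together 3.57%. Of these, 32 of the 37 interferon-stimulated genes were among the lower, with none higher and a median of -2.0. Iigp1, an interferon-inducible GTPase gene, had geometric means of 3148 (Lps), 3822 (Pic), 2056 (Cpg) and 820.5 (Grd), and read 32.5 to 73.2 with Pam, a difference of -5.51 ± 0.16 (adjusted p = 1.6e-34 in limma). Cxcl10 stood at 7430, 7854, 4667 and 2486 with the other ligands, a difference of -4.22 ± 0.13. Ifnb1 stood at 123.4, 1213, 163.2 and 77.5 with them. Cmpk2, Isg20, Ifit3, Ifit2, Tgtp1 and Tlr3 completed the 8 largest, with differences from -4.27 to -3.62. For all 8 the order of the ligands had Grd as the lowest of the other 4. Over the alternative settings, which include leaving out each of the 4 in turn, 31 to 34 genes of the list were lower. Outside this list, Il15, a cytokine gene, stood at -2.59 ± 0.09 and Mertk at -2.75 ± 0.08.

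Promoter sequence is shown for 2 genes of this contrast, chosen as those with the largest differences whose promoter entry holds GAAANNGAA, the repeat that interferon-stimulated gene factor 3 and interferon regulatory factors bind. Of the 37 genes 27 had an entry and 16 of the 27 held the motif on either strand (59.3%), beside 8.56% of all entries and 9.76% of all genes of the table. Capitals mark the matches, which lie on the gene's strand in Cxcl10 and on the opposite strand in Ifit3.
Cxcl10, chr5:92349034-92349139, minus strand: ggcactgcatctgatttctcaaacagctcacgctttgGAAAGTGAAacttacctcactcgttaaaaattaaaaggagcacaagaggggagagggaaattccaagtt
Ifit3, chr19:34583314-34583442, plus strand: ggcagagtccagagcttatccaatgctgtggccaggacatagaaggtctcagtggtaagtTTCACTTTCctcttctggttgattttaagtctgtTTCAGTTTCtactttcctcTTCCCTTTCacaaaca
Ifit3 has 3 matches and Cxcl10 has 1. Cxcl10 rose with Pam against unstimulated cells and Ifit3 did not, although both were far below their level with the other ligands.

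**Figure D5:**
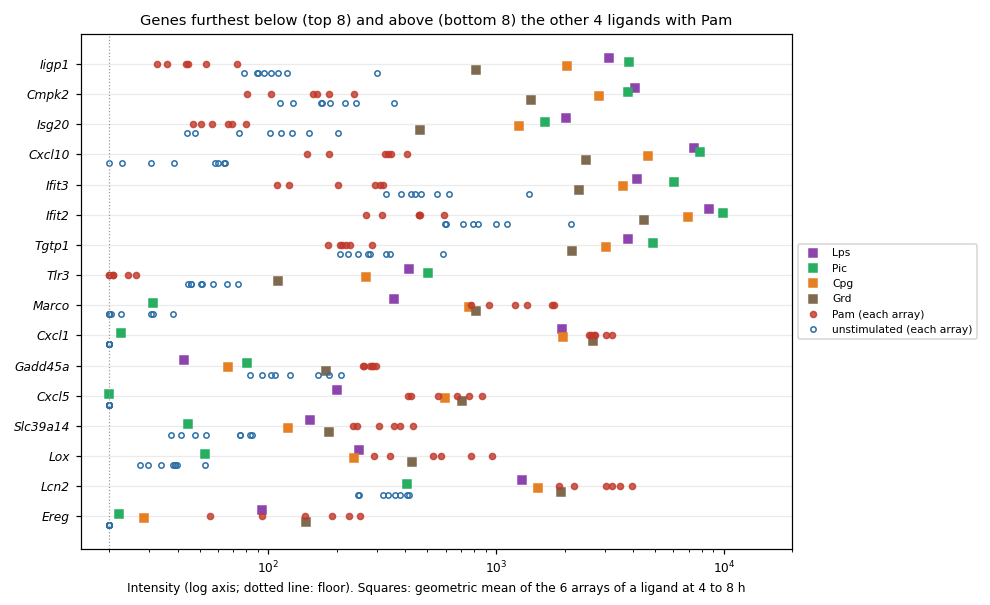
Intensity on a log axis of the 8 genes furthest below and the 8 furthest above the mean of the other 4 ligands with Pam; red points are the 6 Pam arrays, open blue points the 8 unstimulated arrays, squares the geometric mean of the 6 arrays of each other ligand at 4 to 8 h, and the dotted line is the floor of 20. In the upper 8 genes every square lies above every Pam array. In the lower 8 the squares of Pic lie below every Pam array.

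Fewer genes stood above the other ligands, and much of that came from 1 of them. Marco, with geometric means of 356.8 (Lps), 31.1 (Pic), 761.6 (Cpg) and 818.6 (Grd), was 2.10 ± 0.10 higher with Pam. Cxcl1 stood at 1942, 22.6, 1975 and 2676, so that Pic alone was near the floor, and its difference of 1.99 ± 0.08 became 0.36 without Pic. Cxcl5, Lox, Lcn2 and Ereg likewise went from 1.53, 1.46, 1.37 and 1.36 to 0.43, 0.85, 0.88 and 0.94. Marco, Gadd45a, a growth arrest gene (1.78 ± 0.12), and Slc39a14, a zinc and iron importer gene (1.51 ± 0.11), were called with each ligand left out, though a second Slc39a14 probe set stood at 0.53. Without Pic 26 genes were higher and without Grd 106. Il6, Tnf and Il12b stood at 0.50, 0.29 and -0.03 against the other ligands and were not called. Sterol and fatty acid synthesis genes had a median of 0.56, with 3 of 24 higher (Fasn, Fads1 and Stard4) and none lower, beside 0.06 over all genes. Stard4 and Fads1 lost their calls without Lps (0.96 and 0.93), and Stard4 also without Pic and under both other scalings.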

How the data were processed

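The values are array intensities on a linear scale, deposited by the authors as 1 table of 18858 probe sets on 96 arrays. Per the submitters' processing notes they come from RMA, whose version, and the step that set the floor of 20, are not given in the sources used here. All columns were matched to samples by title. Symbols came from the platform annotation (15044 probe sets with 1 symbol, 257 with several, 3557 with none). Dropped were 4409 probe sets that never left the floor. The probe set with the highest mean stood for a gene, and unnamed probe sets were kept, which left 10543 items, 7741 of them named.

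A linear model of log2(value + 1) with 46 group means was fitted to all 96 arrays in limma 3.58.1 (R 4.3.3), with empirical Bayes moderation, 50 residual degrees of freedom and Benjamini-Hochberg adjustment over all items. The script was tested on simulated data. The genes named are the 20 largest called differences each way against unstimulated cells and the 8 largest each way of the other comparisons. Arrays that did not overlap were a condition for these, except against the other ligands. The 6 largest of each gene list, and members described for their role, are named too. The genes, lists and tests were chosen with earlier results of these data known. Alternatives changed the pseudocount, filter, scaling, probe set rule, weights, unstimulated arrays, ligands compared and replicate block, or left out an array. Arrays carry no read depth, so their number limits the precision.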

Additional observations from a re-analysis of the deposited data

Results flagged for a closer look

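An array stood apart from the rest of its group by Dixon's test in 10 of 144 sets of arrays. The 144 include sets wholly at the floor, which have no spread and could not be examined. Chance gives about 1 in 20 only where the arrays of a set are alike. These sets mix several hours, so the 10 cannot be set against that rate. For Il6 the arrays that stood apart were the first Pam array of 6 h, at 6029.5, and the unstimulated array of 2 h, at 62.4. The unstimulated array of 2 h was also highest for Tmeff1, at 23.4. The unstimulated array of 6 h was highest for Ifit3 (1396.6), Iigp1 (300.2) and H2-T24 (114.1), 3 interferon-inducible or MHC-related genes. That of 24 h was highest for Ctla2b (33.7) and Vnn3 (42.6) and lowest for Endod1 (51.0). For Egr1 the second Pam array of 8 h read 20.5 where the other 5 were at the floor.

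The time points of Pam differed, with 33 genes higher and 44 lower at 8 h than at 4 h. The ligands differed too, with 49 genes higher and 327 lower with Pam than with the mean of the other 4. Both were tested as differences in limma.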

How the results depend on the processing

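None of the called genes followed singly (167 against unstimulated cells, 34 for 8 h against 4 h, 102 against early Pam and 86 against the other ligands) changed the sign of its difference under the alternatives run. The balance of counts against unstimulated cells did turn, from 366 higher and 423 lower to 391 and 381 with quantile normalization. With a pseudocount of 16 in place of 1, 15 genes were higher and 26 lower at 8 h than at 4 h, and 26 were higher than with the other ligands. With no limit on size 2644 genes were higher and 3973 lower than in unstimulated cells. Leaving out 1 array at a time gave 358 to 382 higher and 404 to 442 lower against unstimulated cells, 26 to 43 and 36 to 50 for 8 h against 4 h, 183 to 223 and 246 to 260 against early Pam, and 48 to 53 and 315 to 332 against the other ligands. Against the other ligands, 26 genes were higher without Pic and 106 without Grd. The cause was not tested, beyond the values per ligand given above.

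Replicate numbers are shared by the Pam groups but not by the unstimulated arrays. The deviations of same-numbered Pam arrays correlated with r of 0.097 between 4 and 6 h, 0.205 between 4 and 8 h and 0.05 between 6 and 8 h, so the arrays are taken to share only a number. With the replicate block 371 genes were higher and 422 lower against unstimulated cells, and the counts of the other comparisons were 33 and 44, 196 and 247, and 49 and 327. At least 1 alternative ended the call of 38, 19, 11 and 21 of the genes followed in these 4 comparisons. Probe sets at or near the floor of 20 give only bounds.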
